A study of Mus musculus with 6 samples.

Results

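Granzymes, perforin and the proteins that store them or protect the cell that makes them were examined as 8 genes: Gzma, Gzmb, Gzmk, Prf1, Srgn, Ctsw, Serpinb9 and Serpinb6a. They were picked by gene symbol, and all 8 were found among the 14608 genes of the deposited tables. The choice was made with the levels of these genes in the 6 libraries known, in particular the high Gzmb and Gzma in the libraries labelled Cdc42-/-. Their levels by genotype are therefore a description, and no p-value is given for them.

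Cytotoxic lymphocytes keep granzymes, a family of serine proteases, in secretory lysosomes bound to the proteoglycan serglycin. On contact with a target cell the granules fuse with the plasma membrane, perforin forms pores, and the granzymes reach the cytosol of the target, where they cleave caspases, nuclear proteins and other substrates. Clade B serpins in the cytosol of the killer cell inactivate granzymes that leak from its own granules. Regulatory T (Treg) cells, CD4 T cells marked by the transcription factor Foxp3, can also make granzyme B, mostly after activation.

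RNA was sequenced from CD4+YFP+ Treg cells sorted from mouse spleen, in 6 libraries: 2 wild type (WT) and 2 each with a heterozygous (Cdc42+/-) or homozygous (Cdc42-/-) knockout of the small GTPase Cdc42. The series describes them as coming from 2 mice per genotype. Genotypes are those of the labels, which do not give the knockout allele, the Cre driver, the age or the sex. The level is reads per kilobase of gene, scaled to library size (RPKM), and fold changes are differences of log2(RPKM + 1) with limma's standard error (SE). The SE comes from 1 fit of all 6 libraries, so it also includes the spread of a genotype that is not compared.

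The libraries held between 8556576 and 17796100 reads in genes. Cdc42 itself measured 161 to 166 RPKM in the WT pair, 156 to 164 in the Cdc42+/- pair, and 122 and 173 in the Cdc42-/- pair. Summed over the whole gene, this level cannot tell whether some exons are gone, so the genotypes rest on the labels alone. Replicate 2 of Cdc42-/- stood apart: myeloid markers summed to 1463 RPKM there and to between 49.9 and 99.6 RPKM in the other 5 libraries, and Foxp3 was at 58.4 RPKM against 103 to 131 RPKM elsewhere. Ddx3y, a Y-linked gene, measured 37.7 and 42.4 RPKM in the WT pair, 0.126 and 0 in the Cdc42+/- pair, and 0.0974 and 27.5 in the Cdc42-/- pair, and Xist, which is transcribed from the inactive X of female cells, measured 0.199 and 1.13, 99.3 and 93.3, and 87.4 and 21.2 RPKM in the same order. Sex-linked transcripts thus differed between WT and both Cdc42+/- libraries and between WT and Cdc42-/- replicate 1, and Cdc42-/- replicate 2 held both. Genotype and sex cannot be told apart between WT and Cdc42+/-, and sex also differs within the contrast of Cdc42-/- and WT. Since 1 library of a pair can decide a value, many results below are also given without 1 library.

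The stretches of 250 bases before the transcription starts of the 3 granzyme genes are shown because these genes had the highest fold changes of the 8 in Cdc42-/- against WT. They are RefSeq sequences of GRCm38.p6, the genome release also called mm10, which the submitters' processing notes name. All 3 genes are on the minus strand. Gzma spans chr13:113093824-113100981 and its stretch is chr13:113100982-113101231, Gzmk spans chr13:113171630-113180965 and its stretch is chr13:113180966-113181215, and Gzmb spans chr14:56258836-56262334 and its stretch is chr14:56262335-56262584. Gzma and Gzmk are neighbours, 70648 bases apart. Capitals mark matches, on either strand, to the motifs searched.
Gzmb: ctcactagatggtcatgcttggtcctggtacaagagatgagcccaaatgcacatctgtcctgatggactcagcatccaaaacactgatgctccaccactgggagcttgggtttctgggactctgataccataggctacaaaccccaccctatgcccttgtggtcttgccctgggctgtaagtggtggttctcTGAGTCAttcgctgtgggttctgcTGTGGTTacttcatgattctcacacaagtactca
Gzma: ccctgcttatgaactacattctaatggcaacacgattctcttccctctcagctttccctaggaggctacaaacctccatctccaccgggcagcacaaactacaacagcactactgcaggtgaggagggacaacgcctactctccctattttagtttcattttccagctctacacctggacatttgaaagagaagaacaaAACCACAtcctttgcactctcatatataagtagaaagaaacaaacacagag
Gzmk: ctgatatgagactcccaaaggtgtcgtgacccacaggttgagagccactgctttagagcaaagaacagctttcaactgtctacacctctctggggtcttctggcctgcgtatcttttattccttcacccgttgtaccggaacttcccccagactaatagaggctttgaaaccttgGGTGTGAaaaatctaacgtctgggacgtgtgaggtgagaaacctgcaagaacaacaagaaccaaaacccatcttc

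The motifs searched were AP-1 (TGANTCA), CRE (TGACGTCA), RUNX (TGTGGTT), T-box (TCACACC), STAT (TTCNNNGAA) and the E-box (CACGTG). The Gzmb stretch held an AP-1 match, TGAGTCA, 58 to 52 bases before the start, and a RUNX match 34 to 28 bases before it. Gzma held a RUNX match, read on the other strand as AACCACA, 51 to 45 bases before its start, and Gzmk a T-box match, GGTGTGA, 75 to 69 bases before its start. The matches of 1 motif did not overlap those of another. Among 32851 RefSeq promoter stretches of the same length, 6.75% held the AP-1 motif, 4.4% the RUNX motif and 3.33% the T-box motif. Of the other members with a promoter entry, Serpinb6a held a STAT match and Srgn a RUNX match in 1 of their 2 stretches each, and Prf1 and Serpinb9 held no match. A match is a stretch of letters and was not tested as a binding site.

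The 3 granzyme genes were low in WT Treg cells and higher in the libraries labelled Cdc42-/-. Gzmb, which cleaves after aspartate and activates caspases, was 60.7-fold higher on average, and Gzma, a protease that cleaves after basic residues, 39.5-fold, a ratio that rests on 10 WT reads. Gzmk, a second protease of that type, had 2 reads in the WT pair and was present in both Cdc42-/- libraries. As a description of the values that chose them, these 3 of the 8 genes were past an adjusted p of 0.05 in the fit over all 12233 genes for Cdc42-/- against WT, all of them higher, and Gzmk was in the fit only through its Cdc42-/- values. The same fit called 11.4% of all genes tested, 6.86% higher and 4.57% lower. At an unadjusted p under 0.05 the counts were 4 of 8 members and 29.3% of all genes. Nothing is read from the members' count or calls, since the choice of members used this contrast.

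Gzmb measured 1.77 and 2.56 RPKM in the WT pair, 6.35 and 5.32 in the Cdc42+/- pair, and 156 and 107 in the Cdc42-/- pair. The 3 genotypes did not overlap, and Cdc42+/- lay between the other genotypes but close to WT. Reads behind these values were 40 and 31 for the WT pair, 138 and 134 for the Cdc42+/- pair, and 2450 and 1378 for the Cdc42-/- pair. The mean was 2.17 ± 0.553 RPKM in WT, 5.83 ± 0.732 in Cdc42+/- and 131 ± 35.3 in Cdc42-/- (SD, n = 2 each). The log2 fold change was 5.37 (SE 0.23) for Cdc42-/- against WT, 4.26 (SE 0.23) for Cdc42-/- against Cdc42+/-, and 1.12 (SE 0.23) for Cdc42+/- against WT. The first 2 passed the threshold and the third did not. Among all genes of the table, Gzmb moved from the 31.7th and 34.8th percentile of level in the WT libraries to the 97.8th and 96.2th in Cdc42-/-.

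The higher of the Cdc42-/- libraries for Gzmb was replicate 1. With replicate 2 left out, the log2 fold change against WT was 5.65, and with replicate 1 left out it was 5.10. Against Cdc42+/- the call was lost when either Cdc42+/- library was left out, where 0 of all genes passed.

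Gzma measured 0.143 and 1.06 RPKM in the WT pair (2 and 8 reads), 1.04 and 0.576 in the Cdc42+/- pair (14 and 9 reads), and 13.5 and 34.2 in the Cdc42-/- pair (131 and 274 reads). WT and Cdc42+/- overlapped, and both Cdc42-/- libraries lay above them. The mean was 0.604 ± 0.651 RPKM in WT, 0.807 ± 0.328 in Cdc42+/- and 23.8 ± 14.6 in Cdc42-/- (SD, n = 2 each). The ratio of the Cdc42-/- to the WT mean was 22.4 without WT replicate 1, 22.3 without Cdc42-/- replicate 2, 56.6 without Cdc42-/- replicate 1 and 167 without WT replicate 2, where only 2 WT reads remained (95% Poisson interval 46.1 to 1375, for the WT reads alone). The log2 fold change was 3.88 (SE 0.49) against WT and 3.65 (SE 0.49) against Cdc42+/-, both past the threshold, and 0.22 (SE 0.49) for Cdc42+/- against WT. The size depends on the pseudocount: with 0.1 in place of 1 the first 2 values were 5.34 and 4.62, and with voom they were 5.81 and 4.70. Replicate 2 was the higher Cdc42-/- library, the one with the myeloid markers, whose part in its level was not tested. Without it the value against WT was 3.24, still past the threshold. The call against WT was lost without WT replicate 1 and with voom, limma's test on recovered read numbers, while the call against Cdc42+/- was lost with voom and without either Cdc42+/- library.

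Gzmk rested on few reads: 2 and 0 for the WT pair, 8 and 0 for the Cdc42+/- pair, and 19 and 56 for the Cdc42-/- pair. Its level was 0.159 and 0 RPKM for the WT pair, 0.658 and 0 for the Cdc42+/- pair, and 2.17 and 7.74 for the Cdc42-/- pair. The Cdc42-/- mean was 62.5 times the WT mean, which rests on 2 reads (95% Poisson interval 17.3 to 516, for the WT reads alone), and 27.3 times without Cdc42-/- replicate 2 (7.57 to 226), 97.6 times without Cdc42-/- replicate 1 (27.0 to 806) and 31.2 times without WT replicate 2 (8.65 to 258). Without WT replicate 1 the WT level is 0. Gzmk reached the filter of a mean of 0.5 RPKM only through Cdc42-/-, and its fitted value of 2.29 (SE 0.53) depends on the pseudocount: it was 4.71 with 0.1 in place of 1 and 4.97 with voom. Its call against WT held in only 3 of 12 alternatives. It ended with the smaller pseudocount, without the filter, when Cdc42+/- was kept out of the fit, with the replicate block and with voom, and also when any 1 of the WT or Cdc42+/- libraries was left out. Replicate 2 of Cdc42-/- decided much of the size, and the value without it was 1.56. Against Cdc42+/- the difference of 2.03 (SE 0.53) did not pass. It was 2.76 and passed without Cdc42-/- replicate 1, and was 1.30 and did not pass without replicate 2. These intervals cover counting error only.

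**Figure D1:**
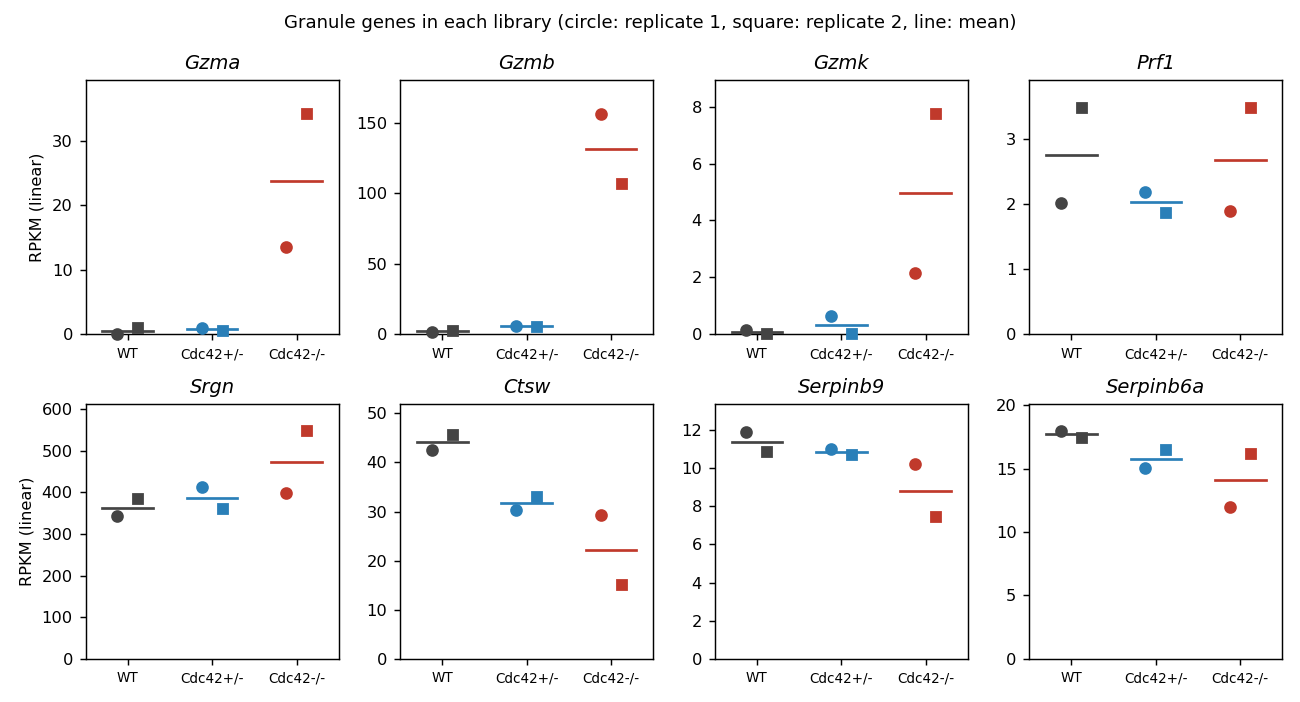
Level of each of the 8 genes in RPKM (vertical axis, linear from 0, a scale of its own per gene) in the libraries of the 3 genotypes, with circles for replicate 1, squares for replicate 2 and a line at the mean. Each of Gzma, Gzmb and Gzmk is higher in both Cdc42-/- libraries than in WT and Cdc42+/-, although Gzmk reaches only 2.17 and 7.74 RPKM there. Prf1 lies between 1.86 and 3.47 RPKM in all 6 libraries, and Ctsw is highest in WT.

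No difference in perforin passed the threshold. Prf1, which encodes the pore-forming protein, measured 2.02 and 3.47 RPKM in the WT pair, 2.19 and 1.86 in the Cdc42+/- pair, and 1.89 and 3.46 in the Cdc42-/- pair. The 3 genotypes overlapped, and each library held between 43 and 69 reads of the gene. The log2 fold change was -0.03 (SE 0.31) for Cdc42-/- against WT and -0.28 (SE 0.31) for Cdc42+/- against WT, so the spread between replicates leaves room for a change in either direction. The sign of the first turned without WT replicate 2 (0.25), without Cdc42-/- replicate 1 (0.28) and with voom (0.03).

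The level of the protease was also set against that of the pore former. Within a library, the RPKM of Gzmb divided by that of Prf1 was 0.879 and 0.737 for the WT pair, 2.90 and 2.86 for the Cdc42+/- pair, and 82.6 and 30.8 for the Cdc42-/- pair. Gzmb was thus the lower of the pair in both WT libraries and the higher in the other 4. The ratio of Gzmb to Gzma was less regular: 12.4 and 2.40 for the WT pair, 6.11 and 9.23 for the Cdc42+/- pair, and 11.6 and 3.12 for the Cdc42-/- pair.

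Serglycin was abundant in every library. Srgn, the core protein of the granule proteoglycan, measured 343 and 384 RPKM in the WT pair, 413 and 360 in the Cdc42+/- pair, and 398 and 547 in the Cdc42-/- pair, at or above the 99.1th percentile of all genes throughout. Both Cdc42-/- libraries lay above both WT libraries, but replicate 1 lay inside the Cdc42+/- range. Against WT the log2 fold change came to 0.36 (SE 0.18), short of the threshold. Srgn is made by myeloid cells too, and the highest value was in the library with the myeloid markers, whose part was not tested. Without that library the value against WT was 0.14, and without replicate 1 it was 0.59 and past the threshold. Srgn exceeded Gzmb by 193-fold and 150-fold in the WT libraries and by 2.55-fold and 5.13-fold in the Cdc42-/- libraries.

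Ctsw was the member with the lowest fold change. It encodes cathepsin W, a cysteine protease found mainly in cytotoxic T cells and natural killer (NK) cells. Its level was 42.6 and 45.6 RPKM for the WT pair, 30.4 and 33.0 for the Cdc42+/- pair, and 29.4 and 15.0 for the Cdc42-/- pair. The libraries of the 3 genotypes did not overlap, with WT highest and Cdc42-/- lowest, although Cdc42-/- replicate 1 lay just under Cdc42+/-. The log2 fold change was -1.03 (SE 0.28) for Cdc42-/- against WT and -0.46 (SE 0.28) for Cdc42+/- against WT, neither past the threshold. Both SEs include the spread within the Cdc42-/- pair. The size in Cdc42-/- rested on replicate 2: without it the value was -0.57, without replicate 1 it was -1.49, and both of these passed.

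Those 2 calls need their own background. Leaving out a Cdc42-/- library removes the pair that differed most, with a median SD per gene of 0.22 on the log2 scale against 0.11 in WT and 0.08 in Cdc42+/-, and the lone sample is then assumed to vary like the other genotypes. The share of all genes called against WT rose from 11.4% to 36.2% without replicate 1 and to 18.5% without replicate 2. The number of members called rose with it, to 6 and 5 of 8.

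Neither serpin passed the threshold, and both had negative fold changes. Serpinb9, the cytosolic inhibitor of granzyme B, measured 11.9 and 10.8 RPKM in the WT pair, 11.0 and 10.7 in the Cdc42+/- pair, and 10.2 and 7.44 in the Cdc42-/- pair. Both Cdc42-/- libraries lay below the others, replicate 1 only just, and the difference from WT, on the log2 scale, was -0.35 (SE 0.18), not past the threshold. Without Cdc42-/- replicate 1 it was -0.55 and passed, and without replicate 2 it was -0.14 and did not. The RPKM of Gzmb divided by that of Serpinb9 was 0.149 and 0.236 for the WT pair, 0.576 and 0.498 for the Cdc42+/- pair, and 15.3 and 14.3 for the Cdc42-/- pair, so that the transcript of the protease exceeded that of its inhibitor in the Cdc42-/- libraries only, among these 6.

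Serpinb6a, an intracellular serpin of the same clade, measured 18.0 and 17.4 RPKM in the WT pair, 15.1 and 16.5 in the Cdc42+/- pair, and 12 and 16.2 in the Cdc42-/- pair. WT was highest without overlap, and the knockout genotypes overlapped. The log2 fold change was -0.33 (SE 0.17) for Cdc42-/- against WT. It passed without Cdc42-/- replicate 2 (-0.53) and in no other alternative, and without replicate 1 it was -0.12. In the GENCODE M21 annotation, 762 of the 5409 exonic bases of Serpinb6a are shared with Nqo2, 241 with Ripk1 and 584 with 1110046J04Rik. The strand setting of the counting is not given in the sources used here, so reads in those bases cannot be assigned with certainty. Ripk1 averaged 16.9 RPKM over the WT pair and 23.0 over the Cdc42-/- pair, and Nqo2 averaged 3.13 and 3.46 RPKM. Ctsw shares 9 exonic bases with Fibp, and Gzmk shares none with Esm1, the gene it overlaps.

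**Figure D2:**
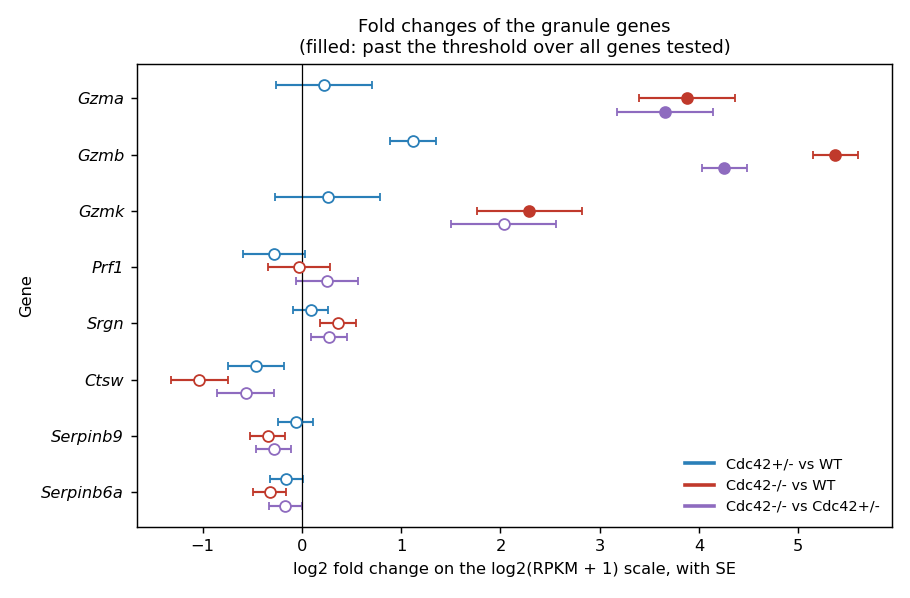
Log2 fold change of each gene on the log2(RPKM + 1) scale (horizontal axis) with its SE as a bar, for Cdc42+/- against WT, Cdc42-/- against WT and Cdc42-/- against Cdc42+/- (colours); filled points passed the threshold in the fit over all genes. Only Gzma, Gzmb and Gzmk have filled points, from 2.29 to 5.37 against WT, and the other 5 genes lie between -1.03 and 0.36 in all comparisons.

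In Cdc42+/- against WT, 0 of the 8 genes passed with limma, as did 0 with voom, and 1 had an unadjusted p under 0.05, Gzmb. Over all genes tested, 0.0% passed and 4.32% had such an unadjusted p. The groups did not overlap for 3 members, Gzmb, Ctsw and Serpinb6a, which is also the case for 43.2% of all genes tested. The authors' deposited table calls 2 members in this comparison at an adjusted p under 0.05, Gzmb (log2 fold change 1.42) and Ctsw (-0.50), among 2.28% of its 14608 genes. The median log2 fold change of the 8 genes was 0.01 and that of all genes tested 0.03.

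In Cdc42-/- against Cdc42+/-, 2 of the 8 genes passed, Gzma and Gzmb, both higher, where 8.22% of all genes did, 4.68% higher and 3.54% lower. At an unadjusted p under 0.05 these were 3 of 8 members and 27.1% of all genes, and libraries did not overlap for 5 of 8 members and 59.0% of all genes. For Cdc42-/- against WT the groups did not overlap for 7 of the 8 genes, all but Prf1, against 56.0% of all genes. These comparisons share libraries and are not independent of each other. The authors' deposited table calls Gzma (log2 fold change 5.36), Gzmb (5.92) and Gzmk (5.43) in Cdc42-/- against WT, among 8.66% of its genes, and places Ctsw (-1.02) just outside. The median log2 fold change of the 8 genes against WT was 0.17, beside 0.01 for all genes tested.

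The order of the levels changed accordingly. In both WT libraries Srgn was followed by Ctsw, Serpinb6a, Serpinb9, Prf1 and Gzmb, with Gzma and Gzmk last. Serpinb6a and Serpinb9 did not overlap in WT, whereas Prf1 and Gzmb did (2.02 and 3.47 against 1.77 and 2.56 RPKM). In Cdc42+/- Gzmb stood above Prf1 in both libraries, and the rest of the order was that of WT replicate 2. In both Cdc42-/- libraries Gzmb was second behind Srgn and Prf1 was last.

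The genes whose pattern over the 6 libraries was most like that of Gzmb, by Pearson's r of log2(RPKM + 1), were Fkbp5, Rgs12, Arhgap33, Iqgap1 and Setdb2, with r between 0.995 and 0.997. Fkbp5, a co-chaperone of steroid receptors, measured 21.4 and 21.1 RPKM in the WT pair, 28.5 and 26.2 in the Cdc42+/- pair, and 71.4 and 68.4 in the Cdc42-/- pair. Iqgap1, a scaffold protein known to bind active Cdc42, measured 79.1 and 80.0 RPKM in the WT pair, 89.9 and 85.0 in the Cdc42+/- pair, and 120 and 116 in the Cdc42-/- pair. For Gzma they were Adap1, Usp1, Xpo1, Mpp6 and Bcl10, with r between 0.997 and 1.00. Such values are common with 6 libraries in 3 genotypes: of 10657 genes compared, 452 had an r of at least 0.95 with Gzmb and 546 with Gzma.

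The other genes of the granule pathway were taken from 5 lists of 89 symbols, of which 70 were tested. In Cdc42-/- against WT, 16 of them rose, 2 fell and 52 did not pass, where 11.4% of all genes passed. Their median log2 fold change was 0.29, beside 0.01 for all genes tested. The count moved with the libraries in the fit: 10 passed with WT and Cdc42-/- alone (4.38% of all genes), 3 and 4 without WT replicate 1 or 2 (2.12% and 2.14%), 10 without Cdc42+/- replicate 1 or 2 (4.47% and 4.5%), and 43 without Cdc42-/- replicate 1 (36.2%). Without replicate 2 of Cdc42-/- it was 23 (18.5%). In Cdc42+/- against WT 0 passed with limma and 0 with voom, and 8 of the 70 had an unadjusted p under 0.05, as did 4.32% of all genes.

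Among other granzymes and granule proteins, 10 of 15 were tested, 1 rose, 1 fell and 8 did not pass. In Cdc42-/- against WT, 6.86% of all genes tested rose and 4.57% fell. Nkg7, a membrane protein of cytotoxic granules, measured 16.7 and 21.0 RPKM in the WT pair, 19.1 and 16.3 in the Cdc42+/- pair, and 45.9 and 39.1 in the Cdc42-/- pair (log2 fold change 1.14 against WT, SE 0.16, adjusted p 0.0101 from limma). That call was lost without either WT library (adjusted p between 0.00417 and 0.0854 over the alternatives). Tnfsf10, the death ligand TRAIL, fell from 22.4 and 18.5 RPKM in WT to 13.3 and 10.7 RPKM (-0.73, SE 0.17, adjusted p 0.0459), a call lost in 7 of 12 alternatives (range 0.00762 to 0.225). The other granzymes tested were low and did not pass. Gzmc, which lies in the Gzmb cluster, was at 1.28 to 2.62 RPKM for the WT pair and 1.74 to 3.51 for the Cdc42-/- pair, and Gzmm at 0.644 to 1.42 RPKM and 0.912 to 1.04 RPKM. How reads that match several granzyme or serpin genes were assigned is not given in the sources used here.

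Of the genes for granzyme activation, sorting and granule release, 22 were tested, 3 rose, 1 fell and 18 did not pass. The shares of all genes tested were 6.86% higher and 4.57% lower. Rab27a, the small GTPase that docks granules at the plasma membrane, measured 27.8 and 25.0 RPKM in the WT pair, 37.1 and 33.0 in the Cdc42+/- pair, and 56.2 and 50.7 in the Cdc42-/- pair (0.99 against WT, SE 0.12, adjusted p 0.00612). Sytl1, which encodes a Rab27 effector, went the other way, from 22.5 and 22.3 RPKM in WT to 11.5 and 12.1 RPKM (-0.87, SE 0.11, adjusted p 0.00753). Lyst, a regulator of lysosome size, rose from 5.69 and 3.90 RPKM to 11.5 and 11.8 RPKM (1.14, SE 0.19, adjusted p 0.0166), and Stx11, a SNARE needed for granule fusion, from 13.4 and 8.69 RPKM to 22 and 31.1 RPKM (1.2, SE 0.26, adjusted p 0.0362). The calls of Rab27a and Sytl1 against WT were kept in 10 of 12 alternatives each and lost without either WT library. Those of Lyst and Stx11 were kept in 8 and 6. Both were lost when Cdc42+/- was kept out of the fit, without WT replicate 2 and without either Cdc42+/- library, and Stx11 also without WT replicate 1 and with the replicate block. In Cdc42+/-, Lyst was at 6.72 and 6.48 RPKM and Stx11 at 20.3 and 15.7 RPKM. Against Cdc42+/- neither passed, with 0.73 for Lyst (adjusted p 0.0705) and 0.53 for Stx11 (adjusted p 0.246). Rab27a (0.60, adjusted p 0.0384) and Sytl1 (-0.80, adjusted p 0.0151) did pass against Cdc42+/-. Their calls against Cdc42+/- were kept in only 6 and 7 of 12 alternatives. Both were lost when WT was kept out of the fit and without any 1 of the WT or Cdc42+/- libraries. That of Rab27a was also lost with upper-quartile scaling.

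Ctsc, the peptidase that removes the granzyme propeptide, stood at 6.67 and 6.23 RPKM for the WT pair and 8.13 and 24.9 for the Cdc42-/- pair (1.05, SE 0.45, adjusted p 0.186), and Ctsh, which can replace it, at 0.735 and 0.864 RPKM for the WT pair and 1.56 and 25.8 for the Cdc42-/- pair (2.20, SE 0.99, adjusted p 0.201). Without Cdc42-/- replicate 2 the values were 0.29 for Ctsc and 0.51 for Ctsh (adjusted p 0.321 and 0.213), and without replicate 1 they were 1.80 and 3.90 and passed. For both, the high value was in replicate 2, the library with the myeloid markers, whose part was not tested. These 2 genes were singled out after their values were seen.

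Of the list of other serpins and cystatins, 7 were tested in limma's fit and 0 passed, where 11.4% of all genes did in Cdc42-/- against WT. The 7 tested were the clade B serpins Serpinb1a, Serpinb2 and Serpinb6b, the clade A serpins Serpina3f and Serpina3g, and the cystatins Cst3 and Cstb. At an unadjusted p under 0.05 the number was also 0, beside 29.3% of all genes in that contrast. Serpinb6b, a close relative of Serpinb6a, was level at 11.7 to 14.4 RPKM in all 6 libraries. Cst3, cystatin C, was at 38.0 to 55.5 RPKM in 5 libraries and at 272 RPKM in Cdc42-/- replicate 2, and is itself on the myeloid marker list.

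Of the transcription factors and cytokine receptors that act on granule genes, 16 were tested, 9 rose and 7 did not pass in Cdc42-/- against WT. Of all genes tested, 6.86% rose and 4.57% fell. The median log2 fold change of the list was 0.92, beside 0.01 for all genes tested. Prdm1, which encodes the regulator Blimp-1, measured 4.88 and 3.37 RPKM in the WT pair, 6.31 and 5.88 in the Cdc42+/- pair, and 15.1 and 15.8 in the Cdc42-/- pair (1.70, SE 0.19, adjusted p 0.00443), and its call was kept in all 12 alternatives. Runx3, a runt-domain factor of cytotoxic cells, was at 10.6 and 11.2 RPKM, 16.0 and 14.5 RPKM, and 25.7 and 21.5 RPKM in the same order (1.05, SE 0.14, adjusted p 0.00809). Irf4 rose from 15.5 and 14.2 RPKM in WT to 29.8 and 33.3 RPKM (1.04, SE 0.15, adjusted p 0.0107), and Junb, a subunit of AP-1, from 78.9 and 94.4 RPKM to 161 and 176 RPKM (0.96, SE 0.15, adjusted p 0.0142). The calls of Runx3, Irf4 and Junb against WT were lost without either WT library and kept otherwise. Against Cdc42+/-, Prdm1, Irf4 and Junb passed (adjusted p 0.0177, 0.0156 and 0.0272), and Runx3 did not (0.60, adjusted p 0.0546). In this contrast Prdm1 kept its call in 10 of 12 alternatives and lost it without either Cdc42+/- library. Irf4 and Junb kept theirs in 7 of 12 each. They lost it when WT was kept out of the fit and without any 1 of the WT or Cdc42+/- libraries.

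The remaining genes of that list that rose were Jun, Fos, Bhlhe40, Batf and Id2. Jun and Fos, which also encode AP-1 subunits, were uneven between the Cdc42-/- libraries. Jun was at 18.8 and 71.8 RPKM and Fos at 26.9 and 122 RPKM, the higher in replicate 2. Against WT, Jun was at 3.27 (SE 0.56, adjusted p 0.0182) and Fos at 3.85 (SE 0.72, adjusted p 0.0239) on the log2 scale, and without replicate 2 they were at 2.33 and 2.78. Id2 measured 13.4 and 18.3 RPKM in the WT pair, 27.3 and 21.6 in the Cdc42+/- pair, and 31.8 and 60.1 in the Cdc42-/- pair (1.42, SE 0.31, adjusted p 0.0389), with 0.97 without replicate 2, and did not pass against Cdc42+/- (0.82, adjusted p 0.160). Bhlhe40 (0.87, SE 0.17, adjusted p 0.0280) and Batf (0.71, SE 0.15, adjusted p 0.0342) were more even. All 5 calls against WT were lost when Cdc42+/- was kept out of the fit and without any 1 of the WT or Cdc42+/- libraries. The call of Fos was also lost with voom, that of Batf with the replicate block and that of Id2 without the filter. Tbx21, which encodes T-bet, was at 3.25 and 4.49 RPKM for the WT pair and 17.2 and 6.31 for the Cdc42-/- pair (1.26, SE 0.44, adjusted p 0.123), with 1.92 and past the threshold without replicate 2 and 0.60 without replicate 1. Eomes was at 1.55 and 0.953 RPKM for the WT pair and 2.62 and 2.08 for the Cdc42-/- pair (0.58, SE 0.27, adjusted p 0.210). Neither passed with all libraries. Tbx21 and Eomes were singled out after their values were seen.

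Of the intracellular substrates of granzymes A and B, 15 were tested, 3 rose and 12 did not pass, where 11.4% of all genes passed. Among those that rose were Lmnb1, lamin B1 of the nuclear envelope, from 25.3 and 24.2 to 112 and 152 RPKM (2.35, SE 0.16, adjusted p 0.00144), and Hmgb2, a chromatin protein known to be high in dividing cells, from 30.1 and 38.9 to 152 and 270 RPKM (2.53, SE 0.28, adjusted p 0.00449). Lmnb1 kept its call in all 12 alternatives, and Hmgb2 lost it without WT replicate 1. These transcripts say nothing of whether the proteins were cleaved.

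**Figure D3:**
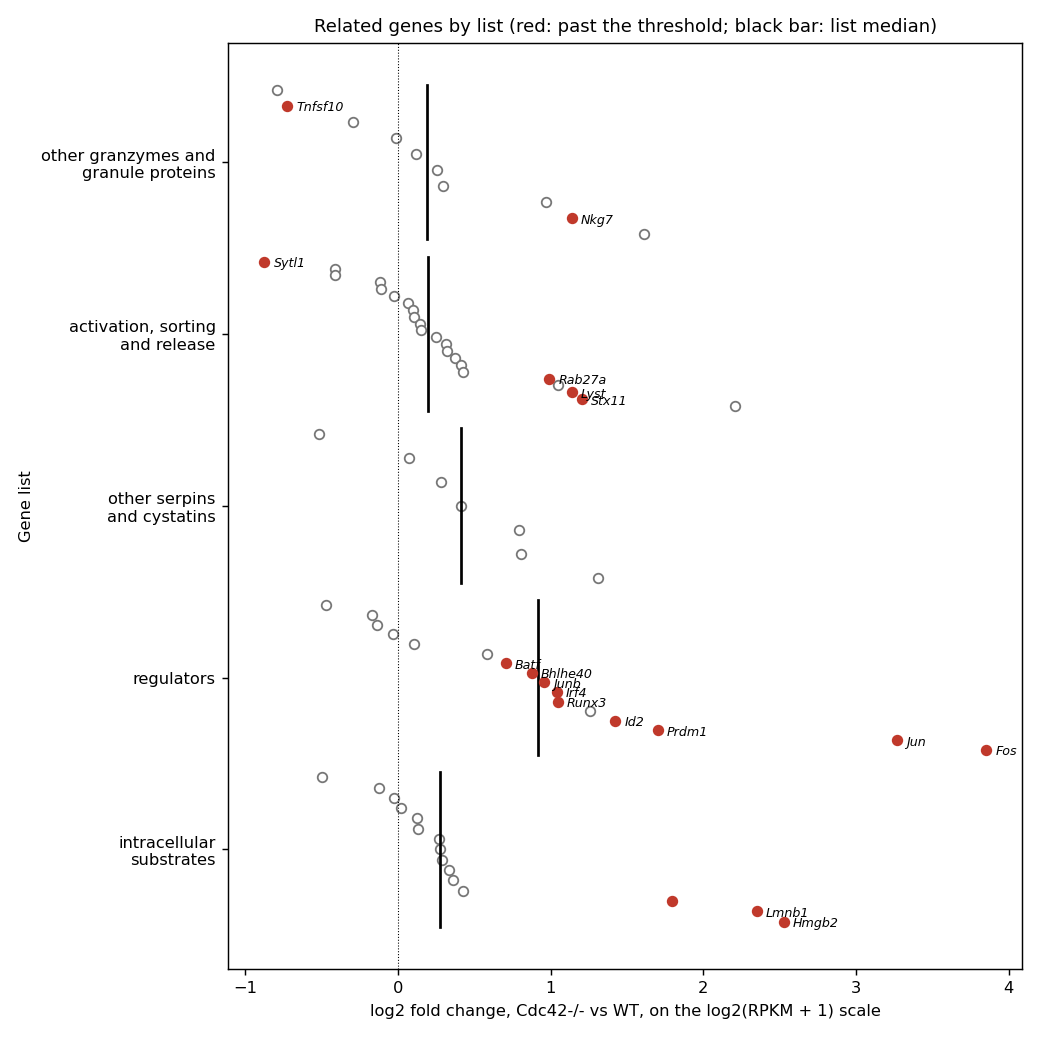
Log2 fold change of the related genes in Cdc42-/- against WT on the log2(RPKM + 1) scale (horizontal axis), 1 point per tested gene in 5 lists, with points past the threshold in red and a black bar at each list's median. The regulators have the highest median, 0.92, with 9 red points, and the list of other serpins and cystatins has no red point.

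Granzymes are also made by cells other than Treg cells, so marker levels are given beside the granzyme values. The 5 NK cell markers in the tables summed to 7.21 and 5.60 RPKM for the WT pair, 7.64 and 6.87 for the Cdc42+/- pair, and 6.27 and 6.70 for the Cdc42-/- pair. Of these, 4 or 5 were above 0 in each library, and they did not move together. Khdc1a, the largest part of most sums, was at 5.06 and 3.95 RPKM in WT against 3.20 and 1.85 RPKM in Cdc42-/-, and Klrb1c at 0.384 and 0.294 RPKM against 0 and 0.158 RPKM. Klrd1 was at 0.218 and 0.405 RPKM in WT against 0.313 and 1.39 RPKM in Cdc42-/-, Klrc1 at 0 in both WT libraries against 0.137 and 1.21 RPKM, and Eomes, given above, was higher in both Cdc42-/- libraries than in the other 4. The part of NK cells in the granzyme values was not tested, and Ncr1, the defining marker, was not analysed here. The 2 CD8 T cell markers summed to between 6.72 and 8.48 RPKM in WT and Cdc42+/-, and to 8.85 and 10.6 RPKM in Cdc42-/-, where Cd8a was at 1.13 and 4.23 RPKM against 0.229 to 0.970 RPKM elsewhere. Cd8b1, the larger part of each sum, was at 7.73 and 6.34 RPKM in Cdc42-/-, against 7.72 and 7.51 RPKM in WT. The part of Cd8a-positive cells in the granzyme values was not tested. The 6 Treg markers, all above 0 in every library, summed to 1022 and 937 RPKM in WT and to 929 and 707 RPKM in Cdc42-/-. They did not move together: Ikzf2 was at 82.9 and 56.7 RPKM in Cdc42-/- against 125 to 137 RPKM in the other 4 libraries, and Ctla4 at 202 and 201 RPKM against 130 to 157 RPKM. In such bulk samples, more cells that make a transcript and more transcript per cell cannot be told apart.

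Replicate 2 of Cdc42-/- was high in other lists as well. The 8 myeloid markers were all above 0 in every library, with Lyz2 at 600 RPKM in that library and at most 9.75 RPKM elsewhere. Cst3 made up 48.5 of the 93.5 RPKM of replicate 1. Without Cst3 the sum was 45 RPKM in replicate 1 and 1191 RPKM in replicate 2, against 11.9 and 44.1 RPKM in WT and 24.7 and 33.2 RPKM in Cdc42+/-. Lyz2 (9.75 RPKM), Ly6c2 (15.2 RPKM), Itgam (1.74 RPKM) and Csf1r (0.933 RPKM) were each higher in replicate 1 than in any WT or Cdc42+/- library, and the other 4 of the 8 markers were not. S100a8 (9.69 RPKM), S100a9 (3.56 RPKM) and Cst3 were lower in replicate 1 of Cdc42-/- than in WT replicate 2, and Cd68 (4.06 RPKM) was below both Cdc42+/- libraries. The 3 mast cell and basophil markers summed to 74.2 RPKM in replicate 2 of Cdc42-/- and to between 1.38 and 7.08 RPKM elsewhere, with Cpa3 at 17.4 RPKM against at most 1.47 RPKM. B and plasma cell markers summed to 141 RPKM in the same library, 13.1 RPKM in replicate 1, 24.2 to 26.6 RPKM in WT and 86.8 to 109 RPKM in Cdc42+/-. Jchain was the largest part where the sum was high (123 RPKM in replicate 2 of Cdc42-/-, 89.0 and 69.2 RPKM in Cdc42+/-). Erythroid markers summed to 3.03 and 10.4 RPKM in Cdc42-/-, above the highest other library, 0.918 RPKM. The 4 plasmacytoid dendritic cell markers summed to between 51.0 and 66.2 RPKM, mostly from Bst2, with the defining Siglech at most 0.204 RPKM, and the only platelet marker analysed, Itga2b, was at 0.841 to 3.66 RPKM. The CD8, erythroid and plasmacytoid dendritic cell sums of replicate 1 (8.85, 3.03 and 66.2 RPKM) were also above every WT and Cdc42+/- library. The part of these cell types in the granzyme values of either Cdc42-/- library was not tested.

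**Figure D4:**
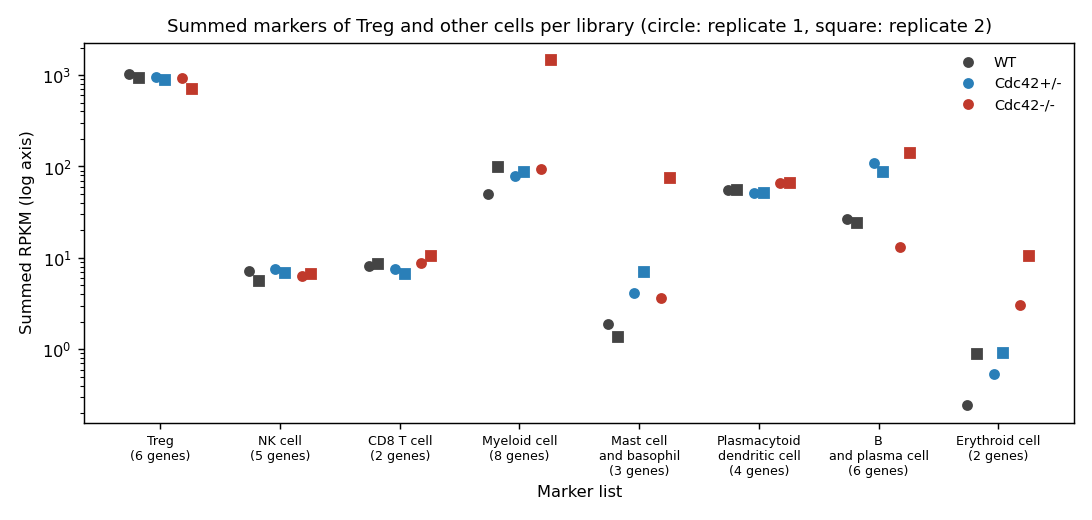
Summed RPKM (vertical log axis) of the marker lists of Treg and other cells in each library, with colours for genotype, circles for replicate 1 and squares for replicate 2. The Cdc42-/- replicate 2 square is far above the others for myeloid markers (1463 RPKM) and for mast cell and basophil markers (74.2 RPKM), while NK cell markers lie between 5.60 and 7.64 RPKM in all libraries.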

How the data were processed

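The authors deposited 2 tables of gene results, Cdc42+/- against WT and Cdc42-/- against WT, and the 4 value columns of each were matched to samples through the sample descriptions. Reads were aligned with TopHat to mm10, per the submitters' processing notes, and the counting tool, annotation and strand setting are not given in the sources used here. Library columns hold RPKM as computed by the authors, worked out from the values, since the headers name no unit. Per the file headers the deposited tables also hold a mean signal per group, the fold change, the log2 fold change and raw and adjusted p-values, quoted only as the authors'.

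RPKM and group means together gave back whole reads (within 0.01) for 100% of values, and the WT reads from both tables differed at 0 genes. The design assumed counts or RPKM and named a test for each. With RPKM this was limma 3.58.1 in R 4.3.3 (eBayes with trend) on log2(RPKM + 1), a filter at 0.5 RPKM averaged over libraries, 6 libraries in 1 fit, Benjamini-Hochberg adjustment over 12233 genes at 0.05. All 8 members passed this filter. The log2(RPKM + 1) scale understates changes of low genes. In each genotype the replicates were further apart than sampling noise (chi-square per gene 14.3, 6.15 and 42.7 in WT, Cdc42+/- and Cdc42-/-). Read recovery and the fit were tested on simulated data. The libraries simulated for the fit had the same spread in all genotypes, unlike these, and no gene as low as Gzmk was changed in them. That test therefore does not cover such conditions.

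The members and all gene lists were chosen with earlier results of these data known. Named genes were the members, up to 4 related genes per list with the smallest p past the threshold in Cdc42-/- against WT, the 5 genes most correlated with Gzmb and with Gzma (mean of at least 1 RPKM, no predicted genes), Cdc42 and cell type markers. Sequences are RefSeq's, GRCm38.p6, and 7 of the 8 members had a promoter entry. The 12 alternatives were another pseudocount, no filter, 2 genotypes only, a replicate block, upper-quartile scaling, voom on recovered reads and leaving out each library. Some genes that this rule names are not reported here.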

Additional observations from a re-analysis of the deposited data

How the results depend on the processing

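Over the alternatives, as a description of values that chose the members, 253 single values of members kept direction and side of the threshold, 16 lost the call, 9 gained one and 10 turned sign. None of those that turned sign was past the threshold as reported. With only the 2 genotypes compared in the fit, 60 genes passed in Cdc42+/- against WT, 536 in Cdc42-/- against WT and 276 in Cdc42-/- against Cdc42+/-, of which 1, 10 and 3 were related genes. Voom on recovered reads gave 1 gene in Cdc42+/- against WT and left 1 member, Gzmb, in each of the other comparisons. It also turned Prf1 against WT to 0.033.

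Leaving out 1 library moved the counts of all genes to between 0 and 76 (Cdc42+/- against WT), 259 and 4433 (Cdc42-/- against WT) and 0 and 4263 (Cdc42-/- against Cdc42+/-). Members past the threshold ranged from 1 to 6 and from 0 to 6 in the last 2 comparisons, and related genes from 0 to 2, 3 to 43 and 0 to 41 in the 3. Log2 fold changes that turned sign ranged, in Cdc42+/- against WT, from -0.20 to 0.65 (Gzma), -0.11 to 0.62 (Gzmk), -0.57 to 0.0005 (Prf1), -0.0111 to 0.19 (Srgn) and -0.13 to 0.0029 (Serpinb9). Against WT, Prf1 in Cdc42-/- ranged from -0.34 to 0.28. Against Cdc42+/-, Prf1 ranged from -0.0619 to 0.56 and Serpinb6a from -0.37 to 0.0373. The cause was not tested beyond the fewer samples.

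Libraries share replicate numbers across genotypes, but the labels do not say that a number marks a shared litter, batch or day. For that reason the numbers were not taken as pairs. Deviations of same-numbered libraries correlated at 0.0177 (WT and Cdc42+/-), 0.202 (WT and Cdc42-/-) and -0.0343 (Cdc42+/- and Cdc42-/-) over 12233 genes. With the replicate block 1144, 809 and 0 genes passed (Cdc42-/- against WT, against Cdc42+/-, and Cdc42+/- against WT), with 2, 2 and 0 members and 16, 13 and 0 related genes. Depth limits Gzmk and the low granzymes, with 0 to 14 reads in WT and Cdc42+/- for Gzma and Gzmk.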
